A study of Mus musculus with 17 samples.

Results

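The EGR and NR4A families of early transcription factors, with the NAB proteins that restrain EGR activity, were followed through a mouse study of versikine, a fragment that proteases release from the matrix proteoglycan versican. The set holds 8 genes chosen by name: Egr1, Egr2 and Egr3, the EGR co-repressors Nab1 and Nab2, and Nr4a1, Nr4a2 and Nr4a3. They are 8 of the 54532 genes counted in 17 RNA sequencing libraries. EGR proteins are zinc finger transcription factors whose genes are switched on within minutes of a signal, in large part through the ERK kinases and serum response factor. Nab1 and Nab2 encode proteins that bind the EGR factors and mostly repress what these activate, and Nab2 is itself a reported EGR target, so that the pair can act as a brake. NR4A proteins are orphan nuclear receptors that act without a known physiological ligand, are controlled mainly by how much of them is made, and are known in mouse dendritic cells and T cells for limiting or shaping activation.

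The libraries fall into 6 groups. MutuDC, an immortalised line of mouse conventional dendritic cells, gave 2 EV samples, 3 Vkine samples, 3 EV + LPS samples and 3 Vkine + LPS samples. Vkine is the label for versikine, EV is a common abbreviation of empty vector, and LPS is the bacterial lipopolysaccharide that activates dendritic cells through a Toll-like receptor. CD45+ cells, the white blood cells, gave 3 EV and 3 Vkine samples. The labels give them the sample type tumor but a bone marrow source, and the name tumor CD45 follows the sample type. The sources used here give neither mouse strain, age and tumor model nor the route of Vkine, and no dose or duration for LPS, so the time after LPS cannot be set against the minutes-scale timing of early genes. MutuDC is 1 tumor-derived line, and the labels do not say whether its replicates are separate cultures. The EV titles of the CD45 set are R1, R2 and R1L1, with no statement that these are 3 animals. P-values therefore reflect how far these samples spread, which may be technical.

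Library totals ran from 13814620 to 21263321 counts. In the MutuDC libraries all 12 markers of conventional dendritic cells of type 1 passed the low-count filter. Their summed levels were 14698 to 19413 CPM, counts scaled to library size. Of the 10 T cell markers 1 passed, and Cd3e, Cd3d, Cd3g, Trac and Trbc2 were at 0 in all 11 libraries. Cd4 measured 0.766 to 2.92 CPM, and the T cell markers summed to at most 3.38 CPM. Of the 10 neutrophil markers 1 passed, and S100a8, S100a9, Ly6g, Mmp8 and Csf3r were at 0 in all 11 libraries. Lcn2 reached 1.32 CPM, and the neutrophil markers summed to at most 1.6 CPM. The summed level of the 10 macrophage markers was 46.5 to 46.6 CPM in EV, 99.5 to 111 CPM in Vkine, 73.7 to 92.3 CPM in EV + LPS and 150 to 168 CPM in Vkine + LPS, with Cx3cr1 at 0 in every group, and its part in the results below was not tested. The mitochondrial share of counts was 1.36% to 1.41%, 1.72% to 1.86%, 1.73% to 1.96% and 0.936% to 1.03% in the same order, and its part was not tested either. RNA came from many cells at once, so fewer cells that express a gene and less RNA per cell cannot be told apart.

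Promoters are shown because Egr1, Egr2, Nr4a1 and Nr4a2 rose by several fold in 1 comparison below while Nab2 fell. RefSeq windows on GRCm38.p6, from 250 bases before to 50 after a transcription start, are shown for 6 of the 8 genes, matched by symbol. No window is shown for Egr1 or Egr3, so the motif counts below say nothing about these genes. They are printed 5′ to 3′ along the gene's strand, with capitals on every match, on either strand, to the motifs searched: the cyclic AMP response element (full site TGACGTCA, which contains its core TGACG), the CArG box bound by serum response factor, the EGR site GCGNGGGCG, the NR4A site AAAGGTCA, the AP-1 site TGANTCA and the NF-kB site. Of the 5 windows listed for Egr2, 3 largely overlap and tie for the most matches, and the first of these is shown.
Egr2 chr10:67537619-67537918: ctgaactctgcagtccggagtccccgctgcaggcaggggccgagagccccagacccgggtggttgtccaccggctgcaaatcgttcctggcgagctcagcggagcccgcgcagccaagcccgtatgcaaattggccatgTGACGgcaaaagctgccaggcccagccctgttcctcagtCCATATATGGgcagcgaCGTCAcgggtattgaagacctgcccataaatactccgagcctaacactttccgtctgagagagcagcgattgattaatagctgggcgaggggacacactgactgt
Nr4a1 chr15:101266596-101266895: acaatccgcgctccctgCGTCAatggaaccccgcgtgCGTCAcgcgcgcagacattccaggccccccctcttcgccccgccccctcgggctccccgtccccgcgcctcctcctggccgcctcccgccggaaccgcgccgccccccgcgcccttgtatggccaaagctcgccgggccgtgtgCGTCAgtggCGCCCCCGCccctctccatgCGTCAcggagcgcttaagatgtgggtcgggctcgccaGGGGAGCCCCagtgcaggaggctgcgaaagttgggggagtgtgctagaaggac
Nr4a2 chr2:57123954-57124253: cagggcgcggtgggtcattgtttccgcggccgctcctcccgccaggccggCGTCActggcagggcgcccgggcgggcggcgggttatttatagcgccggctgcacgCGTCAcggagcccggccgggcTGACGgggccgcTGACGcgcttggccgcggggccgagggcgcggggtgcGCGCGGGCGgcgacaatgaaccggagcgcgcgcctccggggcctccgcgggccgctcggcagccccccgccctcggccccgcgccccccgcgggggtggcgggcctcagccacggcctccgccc
Nr4a3 chr4:48045055-48045354: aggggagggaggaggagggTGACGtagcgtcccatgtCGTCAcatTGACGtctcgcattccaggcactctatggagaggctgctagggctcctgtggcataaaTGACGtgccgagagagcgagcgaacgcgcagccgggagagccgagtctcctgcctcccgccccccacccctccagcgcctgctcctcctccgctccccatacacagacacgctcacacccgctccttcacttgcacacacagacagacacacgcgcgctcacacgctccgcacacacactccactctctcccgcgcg
Nab1 chr1:52500399-52500698: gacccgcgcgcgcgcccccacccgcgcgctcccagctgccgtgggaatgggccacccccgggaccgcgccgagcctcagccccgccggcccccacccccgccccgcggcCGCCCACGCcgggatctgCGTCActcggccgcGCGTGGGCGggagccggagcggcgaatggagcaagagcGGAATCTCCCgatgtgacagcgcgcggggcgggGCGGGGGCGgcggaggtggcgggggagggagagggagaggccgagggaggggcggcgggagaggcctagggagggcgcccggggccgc
Nab2 chr10:127666654-127666953: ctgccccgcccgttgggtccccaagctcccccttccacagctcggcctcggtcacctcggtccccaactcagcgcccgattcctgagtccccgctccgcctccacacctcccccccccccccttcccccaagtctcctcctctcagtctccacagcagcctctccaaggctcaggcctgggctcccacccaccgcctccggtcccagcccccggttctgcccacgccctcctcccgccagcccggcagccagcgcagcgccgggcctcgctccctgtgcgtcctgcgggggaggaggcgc
The windows of Nr4a1, Nr4a2 and Nr4a3 each held 4 matches to the core TGACG, which 0.232% of the 32817 windows of this length in the genome's RefSeq genes did, while 20.8% held at least 1. The Egr2 window shown, picked for its matches, held 2 such cores and 1 CArG box, as did the 2 tied with it, while another Egr2 window held 1 CArG box and no core and the last held no match. Over all windows 5.01% held at least 2 cores and 1.63% held a CArG box. Nab1 had 3 EGR sites, a number reached by 0.195% of windows, whereas 5.56% held any. Nr4a1 and Nr4a2 each had 1 EGR site. The Nr4a1 and Nab1 windows each had 1 NF-kB match, against 4.5% of all windows. No window shown held TGACGTCA, AAAGGTCA or TGANTCA, found in 1.79%, 1.51% and 7.81% of all windows, and the Nab2 window held no match at all. A match is a run of letters and not evidence that a factor binds there.

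All coordinates are on GRCm38. Egr1 (ENSMUSG00000038418) lies on chromosome 18 at 34859823 to 34864984, Egr2 (ENSMUSG00000037868) on chromosome 10 at 67535475 to 67542188 and Egr3 (ENSMUSG00000033730) on chromosome 14 at 70077203 to 70082614. Nab1 (ENSMUSG00000002881) lies on chromosome 1 at 52457294 to 52500679 and Nab2 (ENSMUSG00000025402) on chromosome 10 at 127660918 to 127668568, both on the minus strand. Nr4a1 (ENSMUSG00000023034) lies on chromosome 15 at 101254269 to 101274795, Nr4a2 (ENSMUSG00000026826) on the minus strand of chromosome 2 at 57106830 to 57124003 and Nr4a3 (ENSMUSG00000028341) on chromosome 4 at 48045153 to 48086447. Of the 2941 exon bases of Nab2, 1050 (35.7%) are also exon of the antisense gene Gm16229, 151 of Nemp1 and 40 of Stat6, all on the other strand. The sources used here do not say whether reads were counted by strand. Gm16229 had 0 to 3 counts in each MutuDC library and 0 in each CD45 library. The other 7 genes share no exon base with another annotated gene.

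In MutuDC, Vkine cells carried far more RNA of the EGR and NR4A genes than EV cells. Nr4a3 passed the low-count filter only through the groups other than EV, so a difference from EV was favoured beforehand. It is left out of the counts of comparisons with EV, except where the processing is varied at the end. The other 7 genes all passed the edgeR quasi-likelihood test across all tested genes at an adjusted p under 0.05, 6 of them higher and Nab2 lower, where 35.2% of the 13357 tested genes were called. Higher calls made up 16.9% and lower calls 18.3% of all tested genes. The median log2 fold change of the 7 genes was 2.62, beside 0.01 over all tested genes. The groups did not overlap for any of the 7, as for 64.5% of all tested genes. Among the 13357 log2 fold changes ranked from the highest, Egr2 stood at place 22, Nr4a1 at 37, Egr1 at 66 and Nr4a2 at 100.

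**Figure D1:**
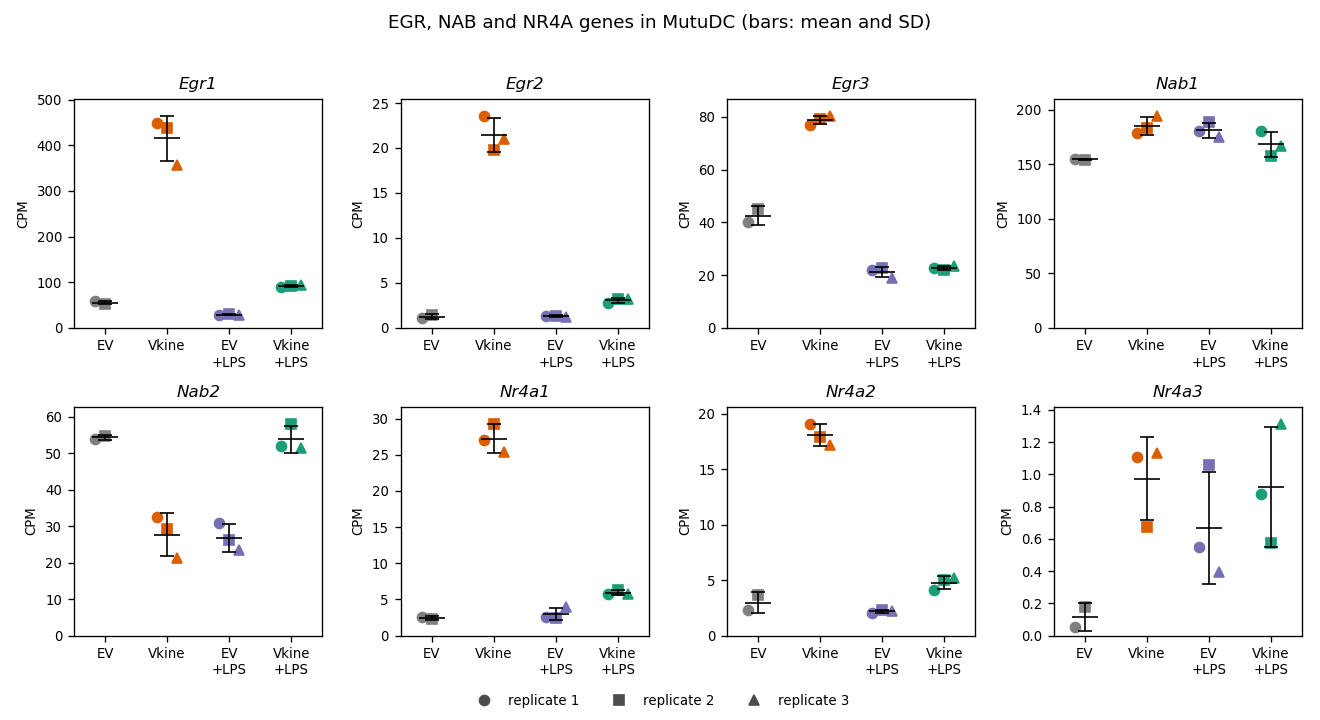
Level of each of the 8 genes in the 11 MutuDC samples, in CPM on the vertical axis, by group on the horizontal axis, with the mean and SD of each group as a bar. Egr1, Egr2, Egr3, Nr4a1 and Nr4a2 are highest in every Vkine sample, Nab2 is lower in Vkine and in EV + LPS than in the other groups, and Nab1 varies little (154 to 194 CPM).

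Egr1, the prototype of the family and an early responder to growth factors and stress, measured 57.9 and 52.6 CPM in the EV samples and 448, 439 and 358 CPM with Vkine. With LPS it measured 29.0, 29.2 and 28.5 CPM in EV cells and 90.2, 91.0 and 94.0 CPM in Vkine cells. No 2 of the 4 groups overlapped, and the order ran from Vkine through Vkine + LPS and EV down to EV + LPS. The log2 fold change of Vkine over EV was 2.91 ± 0.10 (SE, edgeR adjusted p = 4.73e-12), a 7.51-fold difference.

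Egr2, known for its roles in myelination and in the restraint of T cells, was close to silent without Vkine. It measured 1.09 and 1.41 CPM in EV, and 1.32, 1.35 and 1.18 CPM in EV + LPS. Vkine samples measured 23.6, 19.8 and 21.0 CPM, and Vkine + LPS 2.73, 3.20 and 3.18 CPM. The EV groups with and without LPS overlapped, Vkine + LPS lay above both, and Vkine alone lay above all others. At 4.10 ± 0.18 (SE, edgeR adjusted p = 1.01e-10), or 17.2-fold, it had the largest log2 fold change of the 8 genes for Vkine against EV.

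Egr3, a close relative of Egr2 that shares many of its tasks in lymphocytes, moved less. It measured 40.1 and 45.0 CPM in EV and 76.9, 79.2 and 80.1 CPM with Vkine, a log2 fold change of 0.89 ± 0.09 (SE, edgeR adjusted p = 1.9e-06). With LPS it fell to 21.8, 22.8 and 18.9 CPM in EV cells and to 22.7, 21.8 and 23.3 CPM in Vkine cells. The groups with LPS overlapped each other and lay below EV, unlike those of Egr1 and Egr2. The related Egr4 had 0.418 to 1.91 CPM in Vkine and 1.24 to 1.30 CPM in EV, with a log2 fold change of -0.10 ± 0.47 (adjusted p = 0.888, 95% interval -1.09 to 0.89), so the 3 members rose without a detectable change in Egr4 at this depth.

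The co-repressors went apart. Nab1 was the steadiest of the 8 genes, measuring 155 and 154 CPM in the EV samples and 179, 183 and 194 CPM in those with Vkine. With LPS it measured 180, 188 and 175 CPM in EV cells and 180, 157 and 167 CPM in Vkine cells. The EV samples without LPS lay below all others. Its log2 fold change of 0.26 ± 0.07 for Vkine against EV (edgeR adjusted p = 0.0104) was no longer called when either of the 2 EV samples was left out (adjusted p = 0.0719 and 0.0741). Nab2 measured 53.8 and 54.7 CPM in EV and 32.6, 29.3 and 21.2 CPM in Vkine. It measured 30.8, 26.1 and 23.3 CPM in EV + LPS and 52.0, 58.1 and 51.4 CPM in Vkine + LPS. The samples thus formed a high pair of groups (EV, and Vkine + LPS) and a low pair (Vkine, and EV + LPS), with overlap inside each pair and none between them. For Vkine against EV the log2 fold change was -0.97 ± 0.14 (SE, edgeR adjusted p = 7.25e-05). Of the genes that overlap Nab2, Stat6 differed by -0.02 (adjusted p = 0.834) and Nemp1 by 0.20 (adjusted p = 0.115) on the log2 scale, and neither passed the test there. Stat6 was called in the direction of Nab2 for EV + LPS against EV (-0.25, adjusted p = 0.00766), Vkine + LPS against EV + LPS (0.30, adjusted p = 0.000935) and the interaction (0.32, adjusted p = 0.00773). Nemp1 was called lower for Vkine + LPS against Vkine (-0.40, adjusted p = 0.000993) and in the interaction (-0.42, adjusted p = 0.0134), where Nab2 was higher. Their part in the Nab2 values was not tested.

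All 3 NR4A genes were low in EV. Nr4a1, a receptor induced by antigen receptor and stress signals, measured 2.59 and 2.24 CPM in EV and 27.0, 29.3 and 25.4 CPM in Vkine. With LPS it measured 2.54, 2.41 and 3.97 CPM in EV cells, overlapping EV alone, and 5.75, 6.35 and 5.70 CPM in Vkine cells. Its log2 fold change for Vkine against EV was 3.49 ± 0.18 (SE, edgeR adjusted p = 7.37e-10), an 11.2-fold difference. Nr4a2, best known for its need in dopamine neurons and also induced in myeloid cells, measured 2.28 and 3.65 CPM in EV and 19.1, 17.9 and 17.1 CPM in Vkine. With LPS it measured 2.04, 2.29 and 2.18 CPM in EV cells, 2 of them below both EV samples, and 4.15, 5.04 and 5.15 CPM in Vkine cells. Vkine exceeded EV by a log2 fold change of 2.62 ± 0.17 (SE, edgeR adjusted p = 1.63e-08).

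Nr4a3, reported to take part in dendritic cell migration in mice, was near the limit of detection. EV libraries held 1 and 3 counts, Vkine libraries 22, 13 and 19, EV + LPS 10, 18 and 7, and Vkine + LPS 18, 10 and 24. The 3 other groups overlapped one another and each lay above EV. Pooled over libraries and scaled by their totals, the count ratio to EV was 9.30 for Vkine (exact 95% interval 3.43 to 35.4), 6.14 for EV + LPS (2.20 to 23.8) and 8.17 for Vkine + LPS (3.01 to 31.1). These intervals cover counting error only. The edgeR log2 fold change of Vkine over EV, 3.06 ± 0.71 (adjusted p = 0.00321), rested on 4 counts in EV and was not called without EV replicate 1 (2.42, adjusted p = 0.0618).

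LPS without Vkine did not raise the family as Vkine did. Against EV, EV + LPS had 1 of the 7 genes called higher and 3 lower, where 17.2% of all tested genes were called higher and 17.6% lower (34.8% in all). The median over the 7 was -0.44, and the groups did not overlap for 4 of them, beside 54.3% of all tested genes. Egr1 (log2 fold change -0.94 ± 0.09, adjusted p = 1.74e-06), Egr3 (-1.01 ± 0.09, adjusted p = 6.31e-07) and Nab2 (-1.02 ± 0.14, adjusted p = 4.82e-05) fell. Nab1 (0.23 ± 0.07, adjusted p = 0.0224) was called higher by the same edgeR test, as was Nr4a3 (2.51 ± 0.75, adjusted p = 0.0164) with the limit of its filtering. Neither of these last calls held without EV replicate 1 (adjusted p = 0.127 and 0.165) or when EV and EV + LPS were fitted without the other groups (0.0759 and 0.051), and Nab1 also lost it without EV replicate 2 (0.136). Egr2, Nr4a1 and Nr4a2 did not pass the test, with 95% intervals of the log2 fold change of -0.48 to 0.57, -0.17 to 0.76 and -0.89 to 0.02. Without EV replicate 1, Nr4a2 was called lower (-0.75, adjusted p = 0.0298). Egr4 fell from 1.24 to 1.30 CPM in EV to 0.166 to 0.294 CPM (log2 fold change -2.45 ± 0.60, edgeR adjusted p = 0.00476). With 3, 5 and 4 counts in EV + LPS, Egr4 passed the low-count filter only through the other groups. A difference from EV + LPS was thus favoured beforehand, and Egr4 was not recomputed under other settings.

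Vkine cells given LPS held less of the same genes than Vkine cells without it. Of the 8 genes 5 fell and 1 rose between Vkine and Vkine + LPS, against 24.3% of all tested genes called lower and 27.6% higher (51.9% in all). The falls in log2 units were -2.18 ± 0.08 for Egr1 (adjusted p = 5.07e-12), -2.82 ± 0.13 for Egr2 (adjusted p = 7.7e-11), -1.80 ± 0.08 for Egr3 (adjusted p = 7.56e-11), -2.20 ± 0.13 for Nr4a1 (adjusted p = 2.28e-09) and -1.92 ± 0.14 for Nr4a2 (adjusted p = 1.88e-08). Nab2 rose by 0.95 ± 0.13 (adjusted p = 1.52e-05). The groups did not overlap for the 6 called genes, beside 64% of all tested genes. Nr4a3 was not called, at -0.07 (95% interval -0.95 to 0.81). Nab1, at -0.14 (-0.28 to -0.0025), was not called by edgeR (adjusted p = 0.0816) but was called lower by DESeq2 (adjusted p = 0.0486), by limma on FPKM (0.00608 and 0.00623), with upper-quartile factors (0.023), in a fit of these groups alone (0.0183) and without Vkine + LPS replicate 1 (0.0366).

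Among cells given LPS, those with Vkine had the higher level for 5 genes and none was called lower by edgeR, where 22.8% of tested genes were called higher and 42% in either direction. Egr1 was higher by 1.67 ± 0.08 on the log2 scale (adjusted p = 8.94e-10), Egr2 by 1.23 ± 0.19 (adjusted p = 9e-05), Nr4a1 by 0.99 ± 0.17 (adjusted p = 0.000236) and Nr4a2 by 1.13 ± 0.18 (adjusted p = 0.000131). Nab2 was higher by 1.01 ± 0.13 (adjusted p = 1.91e-05), the opposite of its direction without LPS. These 5 genes were also those whose groups did not overlap, beside 48.3% of all tested genes. Egr3 (0.09, 95% interval -0.09 to 0.28), Nab1 (-0.11, -0.24 to 0.03) and Nr4a3 (0.47, -0.47 to 1.41) did not pass the test. Limma on FPKM called Nab1 lower (-0.18, adjusted p = 0.0464 and 0.0467 with 0.1 and 1 added). Egr4 rose from 0.166 to 0.294 CPM to 0.401 to 0.878 CPM (log2 fold change 1.61 ± 0.60, edgeR adjusted p = 0.0409). The limit of its filtering against EV + LPS holds here too.

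**Figure D2:**
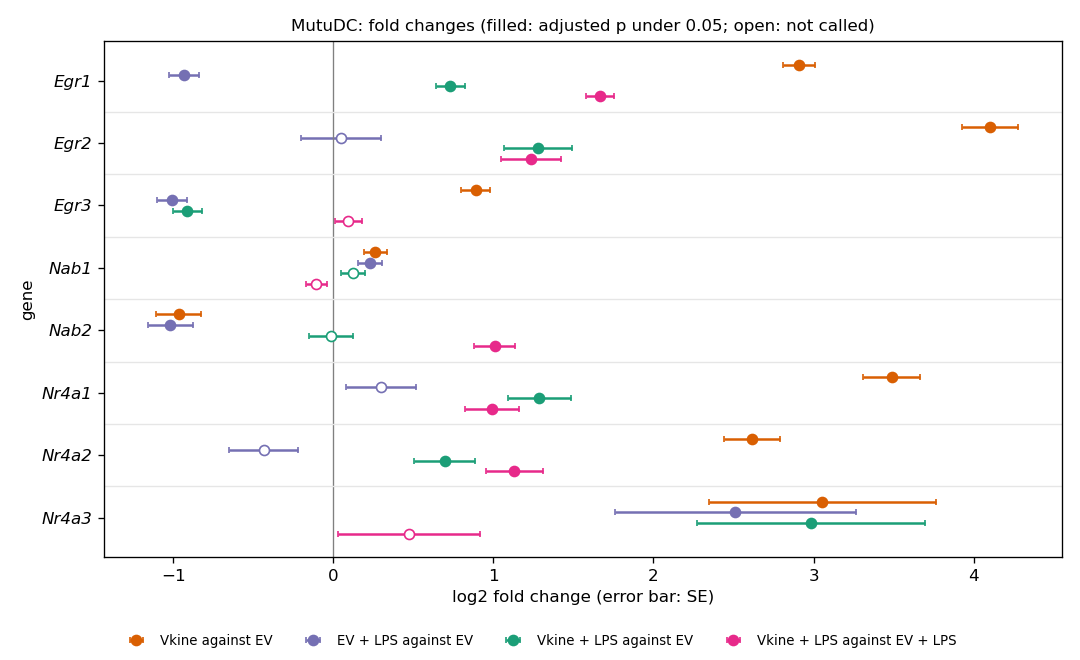
Log2 fold change with its SE (horizontal axis) of each gene (vertical axis) in 4 MutuDC comparisons, filled where the adjusted p was under 0.05. Vkine against EV ranges from -0.97 for Nab2 to 4.10 for Egr2, and for Nab2 the comparison of Vkine + LPS against EV + LPS (1.01) has the opposite sign. Comparisons that share a group are not independent of each other.

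The interaction term, which asks whether Vkine and LPS together depart from the sum of their separate log2 effects, was called for all 7 genes other than Nr4a3, 1 higher and 6 lower, where 25.5% of tested genes were called higher and 23.7% lower (49.2% in all). It was -2.87 ± 0.28 for Egr2 (adjusted p = 7.46e-07), -2.50 ± 0.26 for Nr4a1 (adjusted p = 1.14e-06), -1.49 ± 0.26 for Nr4a2 (adjusted p = 0.000187) and -1.24 ± 0.12 for Egr1 (adjusted p = 8.35e-07). Nab2 had the opposite sign, 1.98 ± 0.19 (adjusted p = 6.7e-07). The median over the 7 was -1.24, beside -0.02 for all tested genes. The interaction of Nr4a3, -2.58 (adjusted p = 0.0224), rests on the same 4 EV counts and was not called without EV replicate 1 (adjusted p = 0.137) or EV + LPS replicate 2 (0.0538).

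Vkine alone and LPS alone differed for 5 of the 8 genes, all higher with Vkine, where 17.4% of tested genes were called higher and 36.8% in either direction. Egr1 was higher by 3.84 ± 0.09, Egr2 by 4.06 ± 0.15, Egr3 by 1.89 ± 0.08, Nr4a1 by 3.19 ± 0.15 and Nr4a2 by 3.05 ± 0.16 on the log2 scale. The groups did not overlap for those 5, beside 42.6% of all tested genes. Nab1 and Nab2 differed between these groups by 0.03 (95% interval -0.10 to 0.17) and 0.05 (-0.23 to 0.33), and Nr4a3 differed by 0.54 (-0.39 to 1.48). Against untreated EV, cells with both agents had 4 of the 7 genes other than Nr4a3 higher and 1 lower, where 8.91% of tested genes were called higher, 6.68% lower and 15.6% in all. The groups did not overlap for 6 of the 7, beside 53.8% of all tested genes. Egr1 (0.73 ± 0.09), Egr2 (1.28 ± 0.21), Nr4a1 (1.29 ± 0.20) and Nr4a2 (0.70 ± 0.19) were above EV and Egr3 (-0.91 ± 0.09) below it, and Nr4a3 (2.99 ± 0.71) was called higher with the limit of its filtering. The Nr4a2 call was lost without EV replicate 1 (0.36, adjusted p = 0.384), without replicate 2 (0.0628) or without replicate 3 (0.0716) of Vkine + LPS, and that of Nr4a3 without EV replicate 1 (2.32, adjusted p = 0.135). Nab2 came back to the EV level, with a log2 difference of -0.01 (95% interval -0.30 to 0.28).

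Levels of different genes were compared per length, as CPM per kb of the gene length in the table. In EV cells Nab1 came first at 37.7 ± 0.18 (SD, n = 2), then Nab2 at 18.5 ± 0.21, Egr1 at 12.3 ± 0.84 and Egr3 at 9.66 ± 0.79, while Egr2 and each NR4A gene were under 1. With Vkine, Egr1 came first at 92.5 ± 11.1 (SD, n = 3), ahead of Nab1 at 45.2 ± 1.98 and Egr3 at 17.9 ± 0.37. Nab2 (9.41 ± 2.0) and Nr4a1 (7.76 ± 0.56) followed, then Egr2 (6.31 ± 0.57) and Nr4a2 (4.45 ± 0.24). Egr1 supplied 55.1% ± 3.80 of the summed EGR level in EV, 79.1% ± 2.19 in Vkine, 55.5% ± 2.06 in EV + LPS and 77.3% ± 0.22 in Vkine + LPS. The deposited FPKM of MutuDC rest on other gene lengths that are not defined, and on that scale Egr3 (17.1) stood above Egr1 (14.4) in EV and, at 8.72 against 7.76, in EV + LPS.

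The co-repressor genes changed little as a sum while the EGR genes moved around them. Nab1 and Nab2 together held 56.1 ± 0.03 CPM per kb in EV, 54.6 ± 0.05 in Vkine, 53.3 ± 2.32 in EV + LPS and 59.3 ± 2.0 in Vkine + LPS, as means with SD. The 3 EGR genes together held 22.3 ± 0.02, 117 ± 11, 11.6 ± 0.57 and 26.5 ± 0.60. The ratio of the NAB sum to the EGR sum was 2.51 in both EV samples, 0.471 ± 0.047 in Vkine, 4.58 ± 0.04 in EV + LPS and 2.24 ± 0.11 in Vkine + LPS. No 2 groups overlapped in that ratio on this scale. On the deposited FPKM the ratios were 3.56, 0.732, 6.48 and 3.48, and EV (3.51 to 3.60) lay inside the range of Vkine + LPS (3.32 to 3.66). Nab2 made up 32.9% of the NAB sum in EV and 30.9% in Vkine + LPS, against 17.2% in Vkine and 17.0% in EV + LPS.

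**Figure D3:**
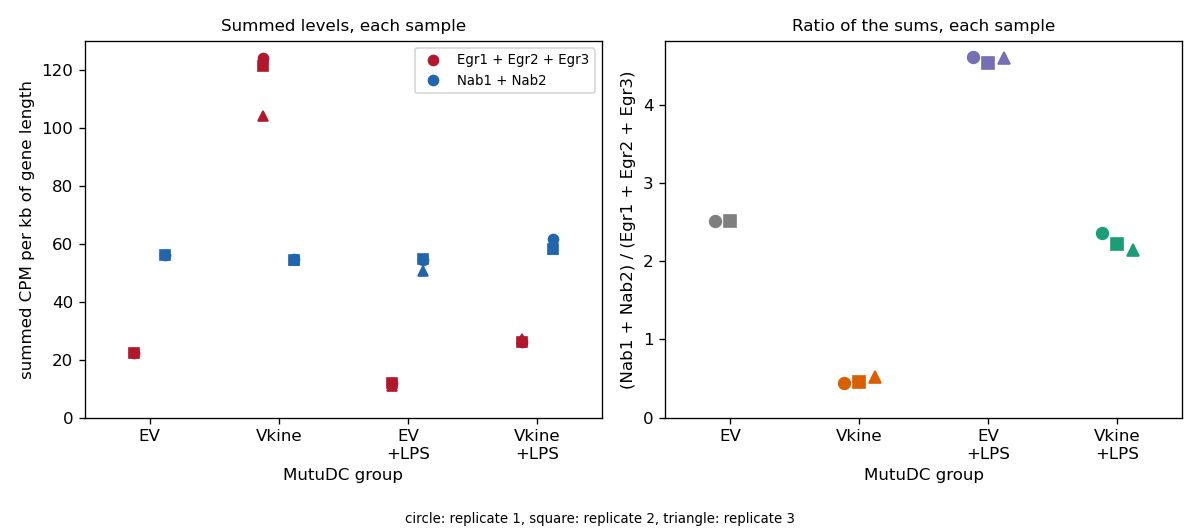
Summed level of the EGR genes and of the NAB genes in each MutuDC sample (left, CPM per kb of gene length) and the ratio of the NAB sum to the EGR sum (right), by group, with 1 symbol shape per replicate number. The NAB sum stays between 50.6 and 61.6 while the EGR sum runs from 11 to 124, and the ratio is lowest in Vkine (0.439 to 0.524) and highest in EV + LPS (4.54 to 4.61).

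Other immediate early genes moved with the EGR and NR4A genes in part. For Vkine against EV, 14 of 24 tested rose and 7 fell (median log2 fold change 0.44), beside 35.2% of all tested genes called. Fos rose by 3.13 ± 0.10, Fosb by 3.39 ± 0.17, both AP-1 subunits, and Zfp36, which destabilises cytokine mRNA, by 2.47 ± 0.11, each with an adjusted p of at most 4.49e-10. For EV + LPS against EV 4 of the 24 rose and 12 fell (median -0.39), beside 34.8% of all tested genes called. Fos was at -1.16, Klf4 at -1.14 and Ier3 at 2.58. Among cells given LPS, 17 were higher and 0 lower with Vkine (median 0.69), beside 22.8% of all tested genes called higher and 42% in all. Junb was at 1.58, Fos at 1.38 and Ier2 at 1.03.

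Genes that carry signals to the EGR and NR4A genes moved in both directions with Vkine. Of 14 tested ERK and serum response factor genes 1 rose and 4 fell (median -0.02), a share close to the 35.2% called over all genes. Srf, the factor of the CArG box, fell by 0.83 on the log2 scale (adjusted p = 1.18e-05). EV + LPS had 0 higher and 6 lower, with Srf at -1.04, beside 34.8% of all genes called, and Vkine + LPS against EV + LPS had 5 higher and 0 lower, with Srf at 0.57, beside 42%. Of 13 tested CREB, MEF2 and NFAT genes 2 rose and 5 fell with Vkine (median -0.10): Mef2c rose by 0.64, and Mef2d and the CREB coactivator Crtc1 had log2 fold changes of -0.57 and -0.51. Rxra and Rxrb, retinoid X receptors that can pair with Nr4a1 and Nr4a2, had log2 fold changes of -0.86 (adjusted p = 1.36e-06) and -0.63 (adjusted p = 0.000368), the 2 called of 3 tested NR4A partners. Among 7 tested EGR partners and competitors none was called by edgeR or DESeq2 for Vkine against EV, and 0 had an unadjusted p under 0.05. Under LPS in EV cells edgeR called 5 of those 7 lower, beside 17.6% of all tested genes, and DESeq2 called 4 of the 7. Among the 5 were Hcfc1 (-0.71), the coactivator Crebbp (-0.74) and Egr4 (-2.45), the last with the limit of its filtering.

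Reported EGR target genes changed in both directions. With Vkine 3 of 12 tested rose and 4 fell (median -0.18), beside 35.2% of all genes called. Tnf, which encodes an inflammatory cytokine, rose from 1.65 to 13.6 CPM (log2 fold change 3.02 ± 0.19, adjusted p = 9.85e-09) and Cdkn1a, a cell cycle inhibitor, by 0.38 ± 0.07, while Id3, an inhibitor of E proteins and an EGR target in developing T cells, fell from 396 to 90.0 CPM (-2.14 ± 0.11, adjusted p = 7.99e-10). In EV cells with LPS, 3 of the 12 rose and 5 fell against EV, with Id3 at -1.25, beside 34.8% of all tested genes called. Vkine + LPS against EV + LPS had 8 higher and 1 lower, with Cdkn1a at 1.49, Icam1 at 1.38 and Tnf at 1.79, beside 42% of all tested genes called. Of 6 tested heat shock genes, which mark cell stress, 1 rose and 2 fell with Vkine, with Hsp90aa1 at 0.27 and Hspa8 at -0.37.

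The genes whose log2 CPM followed each member most closely over the 11 MutuDC samples were taken from about 9392 protein-coding candidates and are given as a description. For Egr1 they were Fos (Pearson r = 0.989), Ier5 (0.987) and Dusp1 (0.983), and for Egr2 Ppp1r15a (0.990), Zfp36 (0.990) and Nr4a2 (0.988). Nr4a1 was closest to Zfp36 (0.981), Ppp1r15a (0.980) and Asns (0.978), and Nr4a2 to Egr1 (0.982), Ppp1r15a (0.981) and Zfp36 (0.981). Egr3 had other neighbours, March8 (0.980), Gnpda1 (0.975) and Aco1 (0.974), as had Nab2 with Lfng (0.990) and Ripor1 (0.988), Nab1 with Crbn (0.967) and Nr4a3 with Lair1 (0.947). The 11 points form 4 groups, so these values mostly describe the order of the group means, and they share library and scaling.

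In tumor CD45 cells the levels ran from 6.67 to 15.7 CPM for Egr3 up to 447 to 2122 CPM for Egr1, and none of the 8 genes was called by edgeR. The edgeR test called 4 of 14006 genes in that set (0.0286%), 3 higher (0.0214%) and 1 lower (0.00714%). DESeq2 called 0 of the 8 and 238 genes in all. With edgeR 4 of the 8 had an unadjusted p under 0.05, as had 1683 of all 14006. The median log2 fold change of the 8 was 0.42, beside 0.00 over all genes. Samples of the arms did not overlap for 3 of the 8 genes, Egr1, Egr3 and Nr4a2, where 18.6% of all tested genes did not.

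Egr1 measured 957, 447 and 1453 CPM in EV and 1679, 1580 and 2122 CPM in Vkine. Every Vkine sample was above every EV sample, with the EV samples far apart and a log2 fold change of 0.91 ± 0.37 (95% interval 0.07 to 1.76, adjusted p = 0.383). Egr2 measured 90.1, 42.0 and 68.1 CPM in EV and 87.8, 91.5 and 126 CPM in Vkine, overlapping in 1 sample (0.61 ± 0.26, adjusted p = 0.399). Egr3 measured 8.36, 6.67 and 8.96 CPM in EV and 11.2, 14.8 and 15.7 CPM in Vkine (0.80 ± 0.25, adjusted p = 0.291). Egr4 had 0 counts in each EV library and 2, 4 and 7 in Vkine, too few to test.

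Nr4a1 overlapped in part, at 1509, 992 and 1422 CPM in EV and 1183, 1252 and 1580 CPM in Vkine (log2 fold change 0.03, 95% interval -0.42 to 0.49), with 1 EV sample below and 1 Vkine sample above all of the other arm. Nr4a2 went the other way, from 168, 332 and 180 CPM in EV to 81.4, 147 and 138 CPM in Vkine (-0.89 ± 0.31, adjusted p = 0.338). Nr4a3 measured 153, 114 and 110 CPM in EV and 71.3, 280 and 268 CPM in Vkine, so that replicate 1 lay below all EV samples and the other Vkine samples above them. Without that sample the log2 fold change rose from 0.72 ± 0.49 to 1.12 and was called (adjusted p = 0.0419), with 28 genes called in all. Vkine replicate 1 also had the highest mitochondrial share of counts, 10.6% against 2.47% to 5.56% in the other CD45 libraries, whose part in these values was not tested. Nab1 measured 122, 92.5 and 128 CPM in EV and 85.0, 179 and 137 CPM in Vkine. Nab2 measured 69.1, 74.4 and 88.4 CPM in EV and 70.9, 57.7 and 52.2 CPM in Vkine (-0.36 ± 0.16, adjusted p = 0.419).

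**Figure D4:**
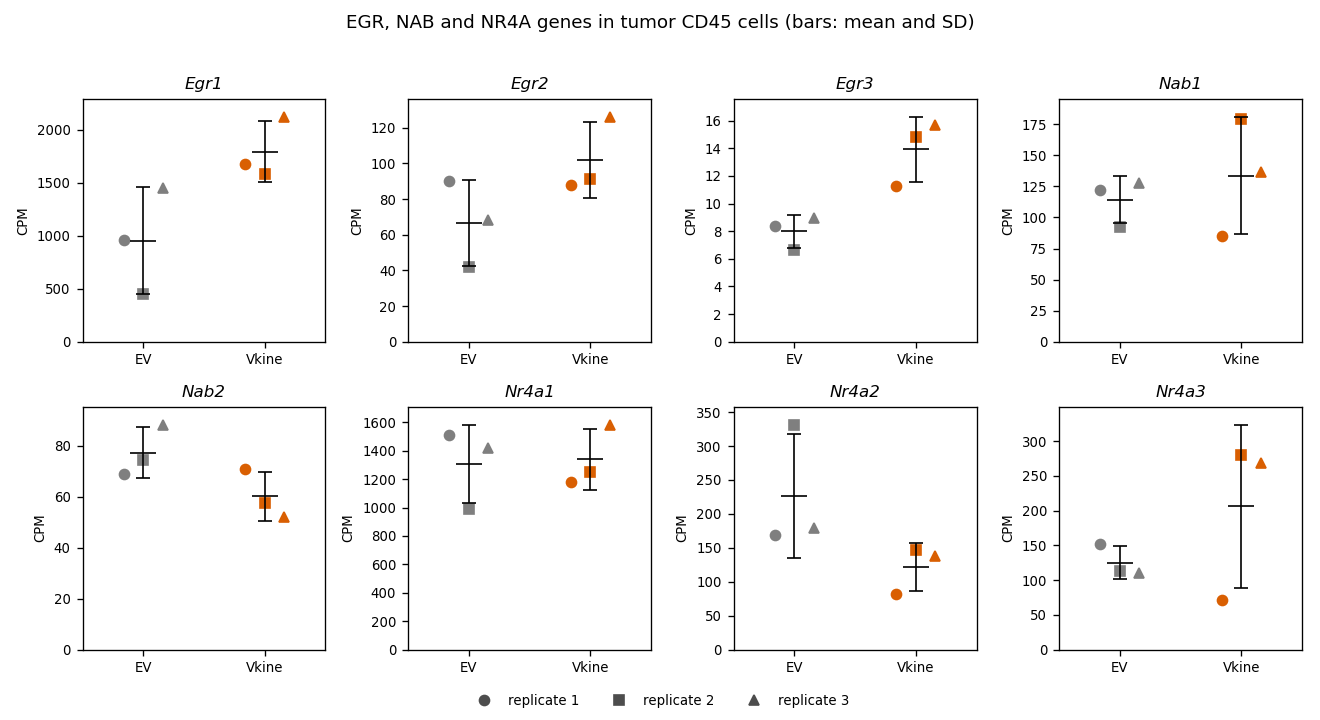
Level of each of the 8 genes in the 6 tumor CD45 samples (CPM on the vertical axis, EV and Vkine on the horizontal axis), with the mean and SD of each arm. Egr1, Egr3 and Nr4a2 show no overlap between the arms, Nr4a1 overlaps in part, and Vkine replicate 1 stands at 71.3 CPM of Nr4a3 beside 280 and 268 CPM.

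Per kb, Egr1 held 89.9% ± 3.25 of the EGR level in EV and 92.4% ± 0.50 in Vkine CD45 cells, and Nr4a1 82.3% ± 7.41 and 85.9% ± 5.15 of the NR4A level (SD, n = 3). The NAB to EGR ratio was 0.273 ± 0.130 (0.177 to 0.421) in EV and 0.125 ± 0.035 (0.0994 to 0.166) in Vkine. The NR4A sum was 449 ± 58.9 and 446 ± 80.2 CPM per kb. The arms did not overlap in summed T cell and neutrophil markers but overlapped in macrophage and type 1 dendritic cell markers. T cell markers summed to 13.2 to 22.4 CPM in EV and 34.7 to 57.9 CPM in Vkine (10 of 10 markers passed the low-count filter), and neutrophil markers to 325 to 1988 and 3425 to 5294 CPM (10 of 10). Macrophage markers (10 of 10) summed to 10666 to 13726 CPM in EV and 8363 to 11618 CPM in Vkine. Type 1 dendritic cell markers (12 of 12) summed to 1224 to 2068 CPM in EV and 1946 to 3243 CPM in Vkine. Over both arms Cd74 measured 686 to 1979 CPM and H2-Ab1 291 to 868 CPM of that sum. Xcr1 measured 1.99 to 7.31 CPM, Clec9a 1.13 to 3.77 CPM and Batf3 2.34 to 6.36 CPM. No marker of these lists was at 0. Heat shock genes, which rise with handling stress, summed to 4080 to 5252 CPM in EV and 5613 to 6422 CPM in Vkine. The part of these differences in the EGR and NR4A values was not tested. None of the 7 lists of related genes had a called member by edgeR. Its unadjusted p was under 0.05 for 1683 of 14006 genes, 5 of 25 other immediate early genes and 4 of 13 reported EGR targets. So it was for 4 of 7 heat shock genes and 5 of 14 CREB, MEF2 and NFAT genes. Counts were 2 of 14 for ERK and serum response factor genes, 1 of 6 for EGR partners and 1 of 4 for the NR4A list. DESeq2 called 0 of the 25 immediate early genes and 2 of the 13 EGR targets, beside 238 of 14006 over all genes. DESeq2 also called 1 of 14 ERK and serum response factor genes, 1 of 14 CREB, MEF2 and NFAT genes, 0 of 6 EGR partners and 2 of 7 heat shock genes. It called 1 of the 4 genes on the NR4A list, which here were Rxra, Rxrb, Foxo1 and the chemokine receptor gene Ccr7.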

How the data were processed

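RNA of 17 samples was sequenced, with RNeasy extraction and NEBNext Ultra libraries per the labels' protocols. Per the submitters' processing notes, the genome build was GRCm38 and the tools were featureCounts 1.5.0-p3, DESeq2 1.20.0, and STAR and fastp with no version stated there. The authors deposited raw counts per gene. They also deposited FPKM, whose gene length in MutuDC is not defined, and these served only in alternatives and side values.

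Counts were filtered with filterByExpr, scaled by TMM and tested with the edgeR 4.0.16 quasi-likelihood F test (robust, R 4.3.3), the CD45 set apart (3 against 3) and MutuDC in 1 model over 4 groups. P-values were adjusted by Benjamini-Hochberg over all tested genes, and genes under 0.05 were called. The SE is the log2 fold change divided by the square root of F, and 95% intervals use the t distribution with the fit's degrees of freedom. CPM use TMM-scaled totals. The correlations used log2 CPM with a prior count of 2. Alternatives were other scaling factors, other filters, DESeq2 1.42.0, limma 3.58.1 on log2 FPKM with 1 or 0.1 added, no robust estimation, a replicate block, fits without the groups not compared, and omission of each sample in turn. The procedure was tested on simulated data.

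The 8 genes, the lists of related genes and markers, and the tests were chosen with earlier results of these data known. Named beside the 8 are Egr4, up to 3 called genes with the smallest p per list and comparison, the 3 protein-coding genes most correlated with each of the 8 (mean log2 CPM of at least 2), and genes sharing exon bases with Nab2.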

Additional observations from a re-analysis of the deposited data

Results flagged for a closer look

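In MutuDC the effect of LPS on the 7 genes other than Nr4a3 differed between EV and Vkine cells by the test of the difference itself, the interaction term of the edgeR fit. In log2 units the interaction was -1.24 for Egr1, -2.87 for Egr2 and -0.79 for Egr3 (adjusted p = 7.07e-05 for Egr3). It was -0.37 for Nab1 (adjusted p = 0.00511) and 1.98 for Nab2. It was -2.50 for Nr4a1 and -1.49 for Nr4a2. That of Nr4a3, -2.58 (adjusted p = 0.0224), rests on 4 EV counts, and Nr4a3 passed the low-count filter only through the other groups. In the whole set 49.2% of tested genes had a called interaction. For Nab2 the LPS effect changed sign, from -1.02 in EV cells to 0.95 in Vkine cells, with both called.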

How the results depend on the processing

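Over the 8 genes and 8 comparisons, 1024 values were recomputed under other settings, of which 980 kept direction and side of the threshold, 18 lost a call, 13 gained one and 13 changed sign. The MutuDC counts of called genes below take in Nr4a3, with the limit of its filtering. Without Nr4a3 the main fit called 7 genes for Vkine against EV and 4 for EV + LPS against EV. It called 7 for the interaction and 5 for Vkine + LPS against EV. Called genes in the CD45 set went from 0 to 3 without a low-count filter (Egr1 and Egr2 higher, Nr4a2 lower, 511 genes called in all) and ranged from 0 to 1 when a sample was left out. For EV + LPS against EV the fit of these groups alone called 3 in place of 5, and leaving out samples 4 to 5; the causes were not tested. Leaving out samples gave 6 to 8 for Vkine against EV, 6 to 7 for Vkine + LPS against Vkine (7 also by DESeq2, limma, upper-quartile factors and the fit of these groups alone, through Nab1), 5 to 5 for both Vkine + LPS (6 by limma, with Nab1 lower) and Vkine alone against EV + LPS, 7 to 8 for the interaction and 4 to 6 for Vkine + LPS against EV, and a lone remaining EV sample is then assumed to vary like the other groups. Over all genes, the 4 calls in CD45 became 238 with DESeq2, 0 to 28 without 1 sample, and 0 with the block, without robust estimation or with limma. In fits of only the compared groups the MutuDC calls went from 4707 to 5945 for Vkine against EV. They went from 4649 to 3016 for EV + LPS against EV and from 2082 to 4250 for Vkine + LPS against EV. Without 1 EV sample fewer genes were called in each of these comparisons. Sign changes concerned values that were not called on either side. With the replicate block, Nr4a1 in CD45 came to -0.0074 and Nab2 in Vkine + LPS against EV to 0.088. Leaving out samples moved Nab1 in CD45 from -0.044 to 0.46 and Nr4a1 there from -0.13 to 0.15. In MutuDC it moved Egr2 in EV + LPS against EV from -0.14 to 0.24, Nab2 in Vkine against EV + LPS from -0.079 to 0.21 and in Vkine + LPS against EV from -0.069 to 0.020, and Nr4a3 in Vkine + LPS against Vkine from -0.40 to 0.17. Samples with the same replicate number showed no clear shared deviation. Correlations were -0.10 to 0.10 in MutuDC (15 pairs) and -0.05 to 0.04 in CD45 (2 pairs). In the same order 4 of 11 and 0 of 6 samples were closest to their own number. With 2 or 3 samples per group this check is weak, and whether equal numbers share a culture or animal is not known. With a replicate block 0 of the 8 genes were called in CD45. In MutuDC, with Nr4a3 counted, 8 were called for Vkine against EV (4130 over all genes) and 4 for EV + LPS against EV (3919). For Vkine + LPS against Vkine 6 were called (6673). Against EV + LPS there were 5 for Vkine + LPS (5250) and 5 for Vkine alone (4554). The interaction had 8 (6142) and Vkine + LPS against EV 6 (1689). Nr4a3, with 1 and 3 counts in EV, is limited by depth.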

Other observations

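The level of Egr4 in MutuDC was 1.30 and 1.24 CPM in EV, 1.91, 1.14 and 0.418 CPM with Vkine, 0.166, 0.294 and 0.224 CPM in EV + LPS and 0.878, 0.401 and 0.822 CPM in Vkine + LPS. Its interaction of Vkine and LPS, 1.71 ± 0.77 on the log2 scale, was not called by edgeR (adjusted p = 0.0746).

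The 8 genes together took 0.0307% to 0.0310% of all counts in EV MutuDC, 0.0754% to 0.0838% in Vkine, 0.0251% to 0.0281% in EV + LPS and 0.0327% to 0.0346% in Vkine + LPS, against 0.226% to 0.420% in the tumor CD45 libraries, which were counted in a separate table.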
